A study of Mus musculus with 6 samples.

Results

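The genes described here encode interferon γ (Ifng), 4 transcription factors known to regulate it (Tbx21, Eomes, Runx3 and Hlx) and the chains of its receptor (Ifngr1 and Ifngr2). They were chosen by symbol, and 7 of the 52550 genes listed in the files are members. RNA came from mouse cells labelled as γδ T cells, a lymphocyte class named for the γ and δ chains of its antigen receptor, from spleens of the strain C57BL/6. In both groups the cells were cultured for 3 days on plates carrying anti-CD3 and anti-CD28 antibodies, a stimulus for T cells, with the cytokines IL-23 and IL-1β. The control group (n = 3 libraries) received no further agent, and the DON group (n = 3 libraries) also received DON, a name the labels do not spell out. The labels give no age, sex, dose or pooling of animals and no purity of the cells.

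Interferon γ is the main secreted product of type 1 lymphocytes, made by T cells and natural killer cells, and it activates macrophages and raises antigen presentation. T-bet, encoded by Tbx21, and its relative eomesodermin, encoded by Eomes, are T-box factors that drive its transcription; RUNX3 and HLX act with T-bet in T cells. The secreted protein binds IFNGR1 and signals together with IFNGR2 through the kinases JAK1 and JAK2. Among γδ T cells, some secrete interferon γ and others interleukin 17, the product favoured by IL-23 and IL-1β.

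The upstream sequences of Ifng, which fell, and of Tbx21, the gene of its main activator, are shown so that the genes behind the values below can be compared. Each is the 250 bases before the RefSeq gene start on GRCm38.p6, written 5′ to 3′ on the gene's strand. Ifng lies at chr10:118440796-118441045 on the plus strand and Tbx21 at chr11:97115332-97115581 on the minus strand. Capitals mark matches, on either strand, to GGAAA (a core bound by NFAT factors), TTCNNNGAA (bound by STAT factors), TGANTCA (AP-1), TGTGGT (RUNX factors) or GTGTGA (T-box factors).
Ifng: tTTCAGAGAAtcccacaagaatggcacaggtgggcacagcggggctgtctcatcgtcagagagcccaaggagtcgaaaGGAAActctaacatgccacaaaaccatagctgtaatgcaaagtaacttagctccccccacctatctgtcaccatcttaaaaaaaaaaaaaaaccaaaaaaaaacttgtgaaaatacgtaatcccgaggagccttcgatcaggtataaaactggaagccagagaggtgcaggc
Tbx21: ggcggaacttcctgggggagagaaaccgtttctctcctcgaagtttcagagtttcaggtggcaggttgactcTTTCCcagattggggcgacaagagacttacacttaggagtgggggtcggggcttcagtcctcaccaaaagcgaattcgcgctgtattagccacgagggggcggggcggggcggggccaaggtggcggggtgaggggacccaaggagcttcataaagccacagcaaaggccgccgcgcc
The Ifng window held 1 match to the STAT letters and 1 to the NFAT letters, and the Tbx21 window held 1 to the NFAT letters. Over the 32851 windows of the same length in the RefSeq table, the STAT letters occurred in 7.02% and the NFAT letters in 55.6%. The other motifs occurred in 6.75% (AP-1), 14.0% (RUNX) and 12.3% (T-box). Only the NFAT letters were therefore common by themselves, and a match to any of these letters marks no bound site. The Ifng window held 6 CpG dinucleotides, the median of all windows, and the Tbx21 window held 16. All 7 genes had a window, and Runx3 had 2, of which the first held 2 matches to the RUNX letters. None of the windows of the other 6 genes matched the STAT letters.

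Values are normalized counts, in which the authors divided gene counts by 1 factor per library. Libraries held 33715873 to 40840099 recovered count units. DON libraries 2 and 3 stood apart from the other 4: their deviations from gene means correlated with the GC content of the transcript (Spearman rho 0.325 and 0.321 across 17152 genes, which are not independent), against -0.126 to -0.261 elsewhere. Constant region genes of the αβ receptor were abundant. Per 1000 bases of merged exons, Trbc2 stood at 25914 to 32945 normalized counts over the 6 libraries, Cd4 at 3251 to 3454 and Cd8b1 at 6893 to 8464, whereas Trdc, the δ chain gene, stood at 1107 to 1216. The transcripts below can therefore have come from T cells other than the labelled type, and in such bulk samples fewer cells of a type and less RNA per cell cannot be told apart.

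Ifng, the cytokine gene itself, fell under DON. It stood at 1451, 1311 and 1246 normalized counts in control libraries 1 to 3 and at 579, 721 and 532 in DON libraries 1 to 3. The lowest control library lay above the highest DON library, so the groups did not overlap. The means were 1336 ± 105 and 610.4 ± 98.3 (SD, n = 3 each), a ratio of 2.19 between control and DON. The log2 change was -1.14 (SE 0.13, 95% interval -1.44 to -0.83; limma adjusted p = 0.00439). Ifng (ENSMUSG00000055170.4) lies on chromosome 10, 118441046 to 118445892, on the plus strand of GRCm38. A provisional gene model, Gm49751, shares 336 exonic bases with it on the same strand and was listed at 20.5 to 61.5 normalized counts; how reads were divided between them is not known.

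Ifng was the 1 member of 7 that fell, and 0 rose. Of all 17185 genes tested, 4.15% were called lower and 2.3% higher, 6.45% in all; 15.7% had all DON libraries below all controls, and also 15.7% had all above. The median log2 change of the 7 members was -0.02, and that of all tested genes was 0.00.

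**Figure D1:**
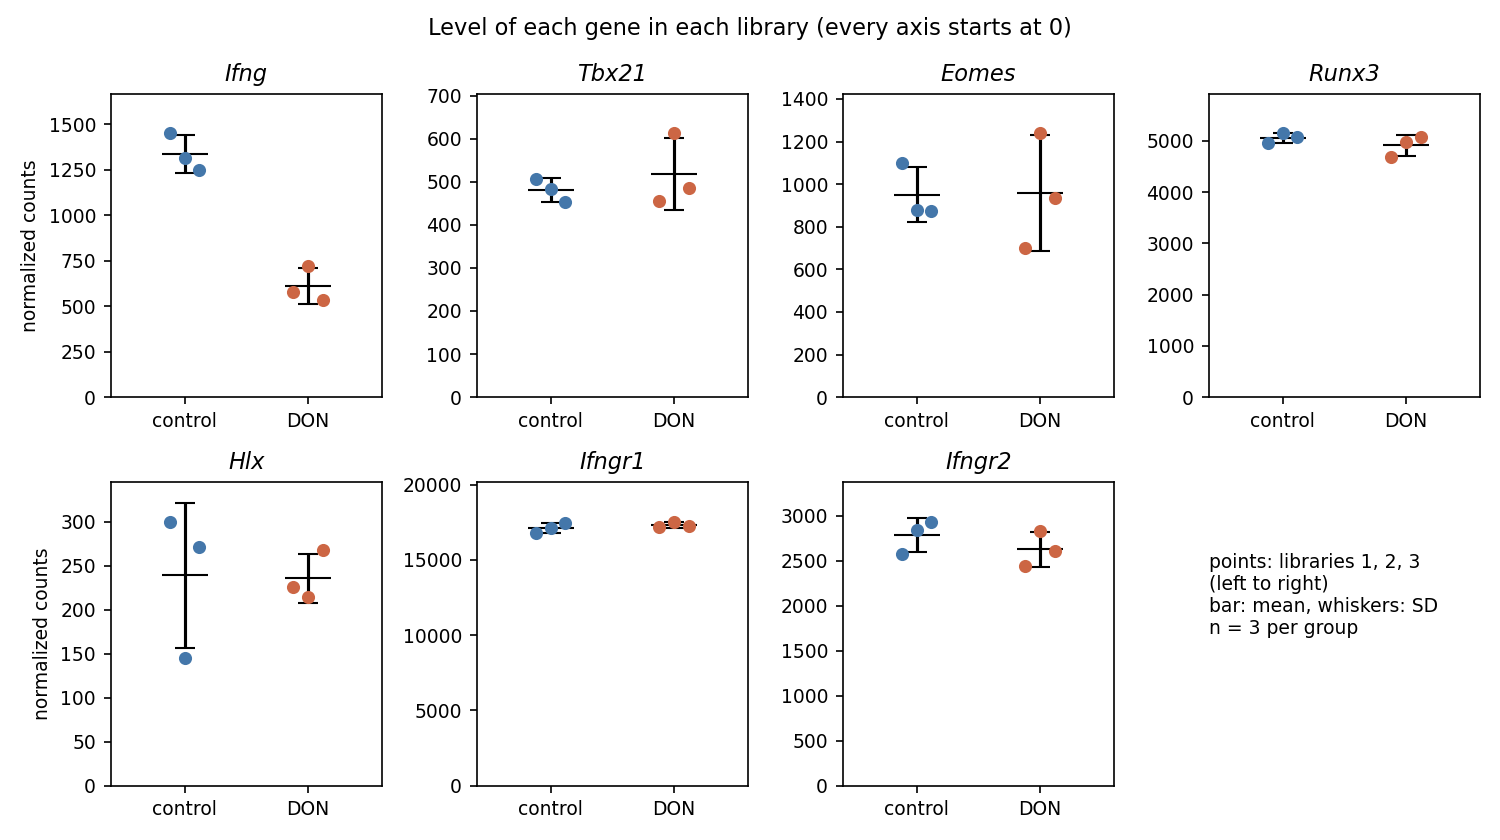
Normalized counts (vertical axes, each starting at 0) of the 7 genes in control and DON libraries; points are libraries 1 to 3 from left to right, horizontal bars are means and whiskers are SDs (n = 3 per group). Ifng separates the groups, with DON libraries at 532 to 721 and controls at 1246 to 1451, and the groups overlap for the other 6 genes.

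The T-box factor genes did not pass the test. Tbx21 (ENSMUSG00000001444.2, chromosome 11, 97098071 to 97115331) stood at 507, 483 and 452 normalized counts in controls and at 456, 613 and 486 in DON. Its highest value was in DON library 2 and its lowest in control library 3, and the groups overlapped. Tbx21 changed on average by 0.10 on the log2 scale, with a 95% interval of -0.22 to 0.42 (limma adjusted p = 0.70). The lower end of that interval is a ratio of 0.857, so a fall of the size seen in Ifng lay outside it.

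Eomes (ENSMUSG00000032446.14, chromosome 9, 118478212 to 118486132) varied more between the DON libraries than between the groups. It stood at 1102, 879 and 873 in controls and at 699, 1240 and 935 in DON, so that both the lowest and the highest library were treated with DON. For Eomes the log2 difference between groups was -0.02, with a 95% interval of -0.49 to 0.45 (limma adjusted p = 0.965). Without DON libraries 2 and 3, the pair with the different GC trend, it was -0.43. This and later log2 values without that pair rest on DON library 1 alone and are given without a p-value. An antisense gene, Gm33460, overlaps 118 exonic bases of Eomes and was listed at 16.3 to 49.4 normalized counts; no source used here says whether counting used strand.

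The ratio of Tbx21 to Eomes was 0.461, 0.549 and 0.518 in controls and 0.653, 0.494 and 0.520 in DON. The highest and the second lowest ratio were both in DON, and the difference of the log2 ratios was 0.12 (exact permutation test, two-sided p = 0.5).

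Runx3, which encodes the RUNX factor of cytotoxic and type 1 T cells, was among the steadiest members. It stood at 4953, 5150 and 5078 normalized counts in controls and at 4685, 4975 and 5075 in DON (ENSMUSG00000070691.10, chromosome 4, 135120652 to 135177990). DON library 1 was lowest and the other DON libraries lay among the controls. The log2 difference for Runx3 was -0.04, with an interval (95%) of -0.19 to 0.10 (limma adjusted p = 0.704).

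Hlx, a homeobox gene, was the lowest member and the least precise. Controls stood at 300.1, 145 and 272 and DON libraries at 226, 214 and 267 (ENSMUSG00000039377.7, chromosome 1, 184727140 to 184732619). All 3 DON libraries lay inside the control range, which was set by control library 2 at its foot. Hlx differed by 0.04 on the log2 scale, and its 95% interval ran from -0.60 to 0.68 (limma adjusted p = 0.943), an interval as wide as ratios of 0.662 to 1.6. It was -0.28 without control library 2 (limma adjusted p = 0.413).

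The receptor chain genes did not pass either. Ifngr1, the ligand-binding chain, stood at 16764, 17127 and 17425 in controls and at 17195, 17542 and 17230 in DON (ENSMUSG00000020009.12, chromosome 10, 19591949 to 19610229). The lowest library was control 1 and the highest DON 2, within a narrow span. On the log2 scale the difference was 0.02 (limma adjusted p = 0.848), and its 95% interval, -0.09 to 0.13, spans ratios of 0.936 to 1.1.

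Ifngr2, the signalling chain, stood at 2581, 2843 and 2936 in controls and at 2445, 2832 and 2607 in DON (ENSMUSG00000022965.7, chromosome 16, 91547072 to 91565169). The lowest library was DON 1 and the highest control 3, with overlap between the groups. The log2 difference for Ifngr2 was -0.08, with its 95% interval from -0.29 to 0.12 (limma adjusted p = 0.582). The ratio of Ifngr1 to Ifngr2 was 6.5, 6.02 and 5.94 in controls and 7.03, 6.19 and 6.61 in DON (exact permutation test, two-sided p = 0.2).

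**Figure D2:**
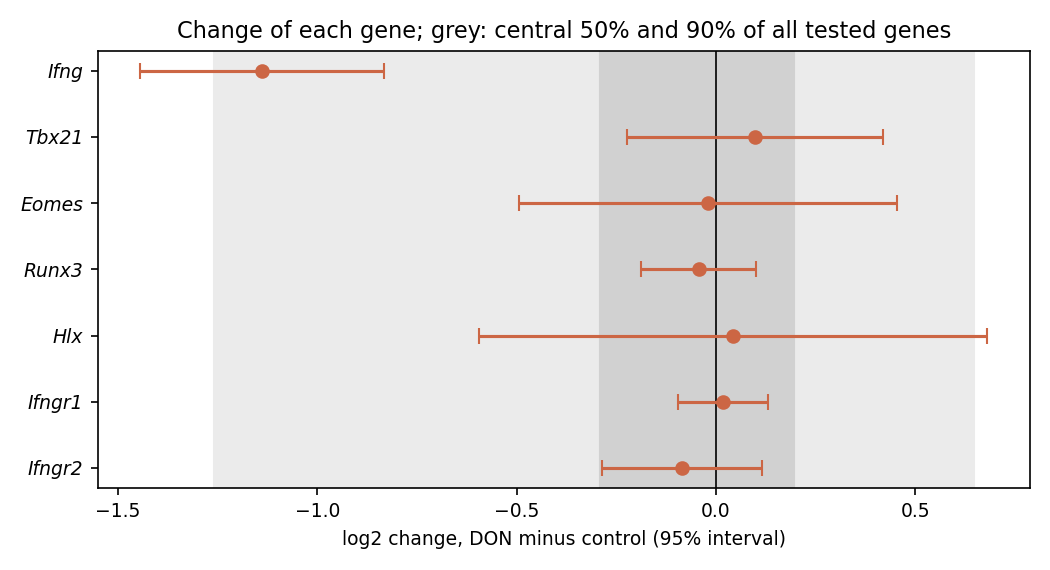
Log2 change (horizontal axis, DON minus control) of each gene with its 95% interval from the limma fit; dark and light grey bands hold the central 50% and 90% of all tested genes. The interval of Ifng, -1.44 to -0.83, does not meet those of the other 6 genes, all of which include 0.

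Levels of different genes are compared here per 1000 bases of merged GENCODE exons. In controls Ifngr1 came first at 6008 ± 116 normalized counts per 1000 bases (SD, n = 3), followed by Ifng at 1032 ± 80.8 and Runx3 at 1011 ± 19.9, which overlapped, and by Ifngr2 at 740 ± 48.9. Eomes at 229 ± 31.4, Tbx21 at 193 ± 11.1 and Hlx at 105 ± 36.3 followed. In DON, Ifngr1 (6084 ± 67), Runx3 (982 ± 40.5) and Ifngr2 (698 ± 51.5) stood above Ifng (471 ± 75.9), and Eomes (231 ± 65.2) and Tbx21 (208 ± 33.4) overlapped. Ifng therefore moved from beside Runx3 to below Ifngr2, and the order of the other 6 genes stayed as it was.

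The fall of Ifng was set against each other member within libraries. The log2 ratio of Ifng to Tbx21 was 1.52, 1.44 and 1.46 in controls and 0.34, 0.23 and 0.13 in DON. On the linear scale the control libraries held 2.86, 2.72 and 2.76 Ifng counts for each Tbx21 count and the DON libraries 1.27, 1.18 and 1.09, with no overlap. The change of the log2 ratio was -1.24 against Tbx21, -1.12 against Eomes, -1.10 against Runx3, -1.18 against Hlx, -1.16 against Ifngr1 and -1.05 against Ifngr2. All 6 ratios were lower in all 3 DON libraries than in any control, and each gave p = 0.1 (exact permutation test, two-sided; 0.1 after adjustment over the 6), the smallest that 3 libraries against 3 allow. Because Ifng is the numerator of all 6, they are not separate tests and add no support to its fall.

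Relative to the geometric mean of Cd3d, Cd3e and Cd3g, which T cells share, and of Trdc, which marks the γδ class, Ifng stood at 0.170, 0.158 and 0.149 in controls and at 0.0644, 0.0695 and 0.0522 in DON. These groups did not overlap, and the log2 difference was -1.37 (exact permutation test, two-sided p = 0.1, and 0.3 after adjustment over 3 genes). Cd3d, Cd3e and Cd3g were each higher in every DON library than in any control (log2 0.42, 0.23 and 0.30). Trdc differed by -0.04. The higher CD3 levels in the denominator make such ratios lower in DON. Tbx21 over the same transcripts differed by -0.13 and Eomes by -0.25 on the log2 scale, with overlap between groups (exact permutation test, p = 0.3 for each). Of 8 genes listed for the γδ receptor and CD3 complex, Cd3d rose (log2 0.42, limma adjusted p = 0.0472) and 0 were called lower. DESeq2 called 4 higher and 1 lower. Of the 8, 4 had a negative log2 change and 4 a positive one. The γ chain genes Tcrg-C1, Tcrg-C2 and Tcrg-C4 were lower on average and did not pass (log2 -0.37, -0.47 and -0.62, limma adjusted p = 0.214, 0.184 and 0.0652). Tcrg-C4 was lower in every DON library than in any control. Cd3d did not pass when any library but DON 1 was left out (limma adjusted p = 0.107 to 0.152).

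Other transcripts of secreted effectors gave another scale for the fall. Ifng stood at 0.0716, 0.0619 and 0.0599 of Il22 in controls and at 0.145, 0.193 and 0.162 in DON. Against Il17a, the gene of interleukin 17A, the ratio was 0.179, 0.163 and 0.151 in controls and 0.688, 0.737 and 0.561 in DON. Against Gzmb, the gene of granzyme B, it was 0.422, 0.380 and 0.391 in controls and 0.512, 0.591 and 0.530 in DON. Each ratio was higher in all 3 DON libraries than in any control, with no overlap between groups (exact permutation test, two-sided p = 0.1 for each, 0.1 after adjustment over 3). A higher ratio here means that Il22, Il17a and Gzmb fell more than Ifng. These 3 were chosen with earlier results of these data known, so the p-values add no support. Not every effector gene fell, as Ccl5, a chemokine gene, rose (log2 0.42, limma adjusted p = 0.0208). That call ended when any single library but DON 1 was left out.

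Among cytokine receptors and signal carriers that induce Ifng, 2 of 17 tested genes fell, 0 rose and 15 did not pass, with a median log2 change of -0.05. Il12rb1, a chain shared by the IL-12 and IL-23 receptors, fell from 1723 ± 59.1 to 1059 ± 85.2 normalized counts (SD, n = 3 each; log2 -0.70, limma adjusted p = 0.0061). Gadd45g, which activates the p38 kinase pathway to interferon γ in T cells, fell from 495 ± 14 to 241 ± 22.4 (log2 -1.04, limma adjusted p = 0.00485). Il27ra, a chain of the IL-27 receptor, came next by p and did not pass (log2 0.24, limma adjusted p = 0.0798). Stat4, which carries the IL-12 signal, differed by 0.00 on the log2 scale (-0.21 to 0.20 at 95%), and Il12rb2, the IL-12-specific chain, of -0.31 (limma adjusted p = 0.131); both were picked after their values were seen. Correction for GC content gave 4 lower and 1 higher.

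Of 13 transcription factor genes that act with or on T-bet, 1 fell, 0 rose and 12 did not pass (median log2 -0.17). It was Cbfb, the partner that RUNX proteins need to bind DNA, which stood at 5463 ± 497 in controls and 3446 ± 678 in DON (log2 -0.68, limma adjusted p = 0.0315). The change was -0.37 in DON library 1 alone, without DON libraries 2 and 3. Cbfb did not pass when any single library but DON 1 was left out (limma adjusted p = 0.092 to 0.122). Bhlhe40, a factor that favours cytokine production in T cells, and Id2, an inhibitor of E proteins, were next (log2 -0.29 and -0.56, limma adjusted p = 0.0512 and 0.0604). DESeq2 called 4 of these genes lower and the GC correction 3.

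None of the repressor genes was called higher. Of 12 tested genes that restrain Ifng or Tbx21, 2 fell and 0 rose, with a median log2 change of -0.11, and Twist1 was below the minimum level. Bach2, a repressor of effector programs, fell by 1.72 on the log2 scale (limma adjusted p = 0.00182). Tcf7, a factor of naive and memory T cells, came next and did not pass (log2 0.19, limma adjusted p = 0.062). In the same libraries 13 of 13 B cell markers fell, and Bach2 is also a B cell gene; the part of B cell transcripts in its fall was not tested.

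Genes known to be driven by T-bet or eomesodermin went in both directions. Of 16 tested, 1 fell, 2 rose and 13 did not pass, with a median log2 change of 0.10. Gzmb fell from 3355 ± 148 to 1118 ± 109 (SD, n = 3 each; log2 -1.59, limma adjusted p = 0.00022). Ctsw, a protease gene of cytotoxic lymphocytes, and Ccl5, a chemokine gene, rose by 0.51 and 0.42 on the log2 scale (limma adjusted p = 0.0171 and 0.0208). Without DON libraries 2 and 3 the log2 differences were 0.41 and 0.35, from 1 DON library. Leaving out any single library but DON 1 ended both calls (limma adjusted p = 0.0508 to 0.0783 for Ctsw and 0.0587 to 0.0923 for Ccl5). Cxcr3, a chemokine receptor gene that T-bet activates directly, differed by 0.19 on the log2 scale (limma adjusted p = 0.272) and was picked after its value was seen.

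**Figure D3:**
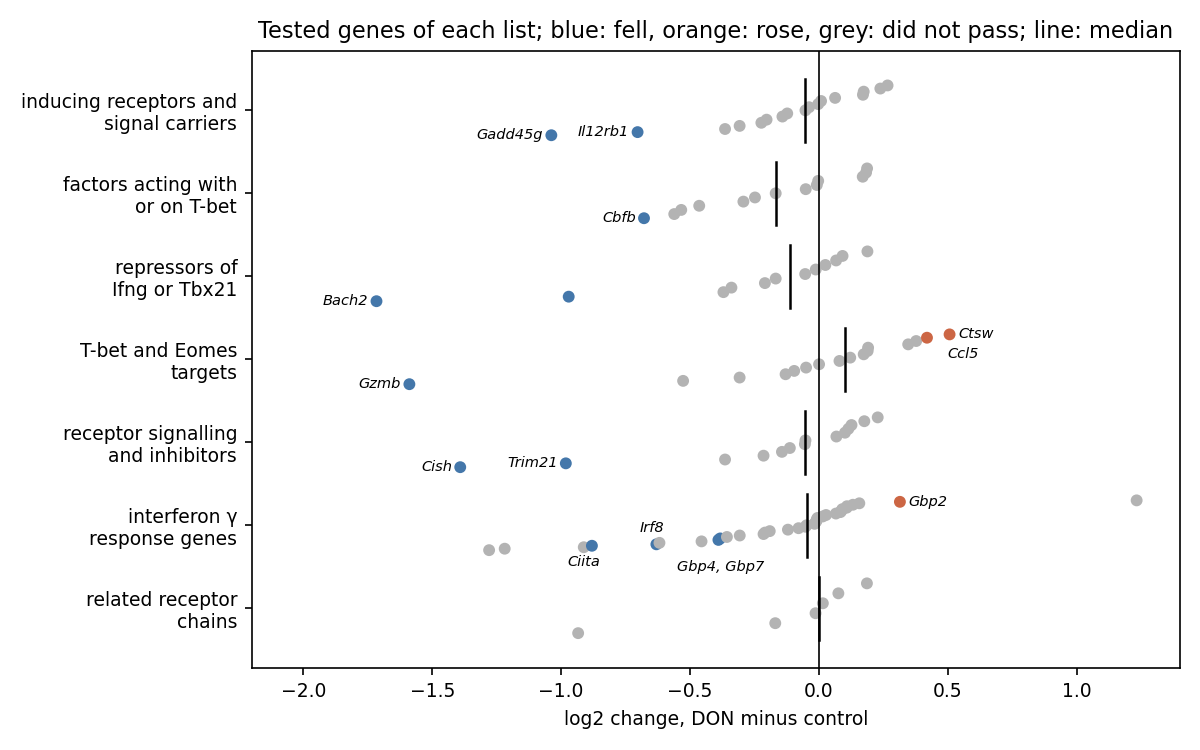
Log2 change (horizontal axis, DON minus control) of each tested gene in 7 lists around interferon γ; blue genes fell, orange genes rose, grey genes did not pass, and black lines are list medians. Medians lie between -0.17 and 0.10, and names mark genes described in the text.

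Downstream of the receptor, 2 of 14 signalling and inhibitor genes fell, 0 rose and 12 did not pass (median log2 -0.05). Trim21, an antibody receptor and ubiquitin ligase induced by interferons, fell from 4943 ± 84.1 to 2504 ± 118 (log2 -0.98, limma adjusted p = 0.000415). Cish, a feedback inhibitor of cytokine signalling, fell by 1.39 on the log2 scale (limma adjusted p = 0.0487), and was not called without any single library but DON 1 (0.0633 to 0.157). Without DON libraries 2 and 3 its log2 difference was -1.09, from 1 DON library. Jak1, the receptor kinase gene, came next and did not pass (log2 0.18, limma adjusted p = 0.0722).

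Of 35 tested interferon γ response genes, 4 fell, 1 rose and 30 did not pass. Their median log2 change was -0.05, and 23 of the 35 had a negative value. Their summed level, in which the highest genes weigh most, was 637588 to 662500 normalized counts in controls and 598760 to 634268 in DON. These ranges did not overlap, but their nearest ends lay close together. Irf8, a transcription factor gene of myeloid and B cells, fell by 0.63 on the log2 scale, and Ciita, the activator of MHC class II genes, by 0.88 (limma adjusted p = 0.0051 and 0.00544). Among the guanylate-binding protein genes, which defend against intracellular microbes, Gbp7 (log2 -0.38) and Gbp4 (-0.39) fell and Gbp2 (0.31) rose (limma adjusted p = 0.0106, 0.0359 and 0.0122). Gbp7 no longer passed after the GC correction (log2 -0.16, limma adjusted p = 0.214). Without DON libraries 2 and 3 the log2 difference of Gbp4 was -0.20, from 1 DON library. Gbp2 and Gbp4 missed the threshold when any single library but DON 1 was left out (limma adjusted p = 0.05 to 0.0756 and 0.1 to 0.135), and Gbp7 without control library 1 or 3 (0.0593 and 0.0662). Gbp genes are near copies of each other, so their reads may have been shared. Irf8 and Ciita are also expressed in B cells, and B cell markers fell in the same libraries; their part was not tested.

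None of the 6 tested chains of related receptors passed in limma, nor did any in edgeR or DESeq2, and 1 had an unadjusted p under 0.05; by p the nearest were Il10rb, Ifnlr1 and Ifnar2 (log2 0.19, -0.93 and 0.08, limma adjusted p = 0.141, 0.54 and 0.547). Ifnlr1 was low, at a mean of 31.4 in controls and 16.8 in DON. Il22ra1 was listed at 0 in all libraries.

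Ifng shares its stretch of chromosome 10 with other cytokine genes. Of its 10 listed neighbours, 2 fell, 0 rose and 8 did not pass. Il22, whose start lies upstream of that of Ifng (-236.1 kb), stood at 20255, 21196 and 20817 in controls and 3999, 3743 and 3290 in DON (log2 -2.50, limma adjusted p = 9.85e-06). Iltifb, a copy of Il22 that also starts upstream (-146.0 kb), stood at 282, 293 and 225 and at 30.6, 40.1 and 74 (log2 -2.53, limma adjusted p = 0.00622). Both were lower in all DON libraries, and since they are near copies, reads may have been shared between them.

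On the other side, Ifngas1 encodes a long noncoding RNA, known in mice to promote Ifng transcription, and starts 115.5 kb after the start of Ifng on the opposite strand. The files list its identifier, ENSMUSG00000112230.1, under a clone name. It stood at 101, 159 and 179 in controls and at 228, 262 and 269 in DON, with every DON library above every control. The log2 change of 0.82 (95% interval 0.28 to 1.36) did not pass over all genes (limma adjusted p = 0.0764), while DESeq2 called it (adjusted p = 0.0258). This was the opposite direction to Ifng in these libraries.

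The flanking genes did not pass. Mdm1 had a log2 change of 0.02, Mdm2 of 0.05, Cand1 of -0.02 and Nup107 of -0.04, and the libraries of the groups overlapped for each. Slc35e3 (-0.18), Dyrk2 (-0.16) and Rap1b (-0.28) were lower on average (limma adjusted p = 0.518, 0.165 and 0.119). Dyrk2 and Rap1b were lower in every DON library than in any control, as were 15.7% of all tested genes, whereas the groups overlapped for Slc35e3.

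**Figure D4:**
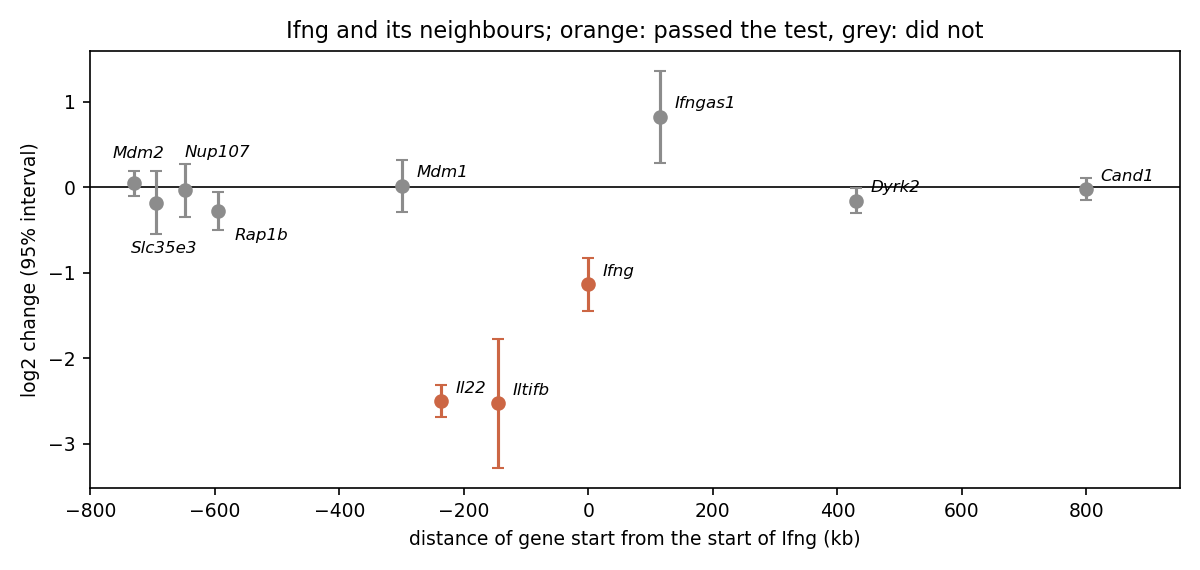
Log2 change with 95% interval (vertical axis, DON minus control) of Ifng and 10 neighbours against the distance of each gene's start from that of Ifng in kb; orange genes passed the test and grey genes did not. Il22 and Iltifb lie lowest at -2.50 and -2.53, Ifng is at -1.14, and Ifngas1, on the far side, is at 0.82.

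The genes most like Ifng across the 6 libraries were found by Pearson correlation of log2 values among 9853 genes with a mean of at least 5 CPM. They were Stard10 (r = 0.997), Crybg3 (0.995), Slc39a8 (0.994), Bub1b (0.992) and Serpina3f (0.991). Correlation does not measure the size of a change. Stard10 and Crybg3 differed by only -0.28 and -0.21 on the log2 scale and did not pass (limma adjusted p = 0.175 and 0.158). Slc39a8, Bub1b and Serpina3f fell by 1.29, 1.02 and 0.68. Slc39a8, a zinc transporter gene, stood at 341, 320.4 and 313 in controls and 115, 171 and 117 in DON, and Bub1b, a mitotic checkpoint gene, at 342, 346 and 344 and at 166, 199.8 and 145. As with Ifng, both stood highest among the DON libraries in library 2, an order that choosing them by correlation favours. The points share libraries and their scaling, and 195 genes had r above 0.95.

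Markers of other cells that make or sense interferon γ moved as follows in the same libraries. Of 12 tested natural killer cell markers, 0 passed in limma and 0 in edgeR, while DESeq2 called 2 lower and 1 higher; their median log2 change was -0.48, and 6 had an unadjusted p under 0.05. Their summed level was 2874 to 3198 normalized counts in controls and 2453 to 3162 in DON, and the highest were Prf1 (log2 0.35) and Gzma (-0.36). Of the 12, 10 had a negative log2 change, and Prf1 was 1 of the 2 with a positive one. Of 8 αβ T cell markers 0 passed in limma, edgeR and DESeq2 and 3 had an unadjusted p under 0.05, with sums of 85155 to 88446 and 87626 to 94899; the highest were Trbc2 (log2 0.21) and Cd4 (0.02). None of the markers in these lists was at 0 in all libraries.

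Among 14 markers of macrophages and monocytes, 6 were called higher, and Lyz2 fell (log2 -0.44; sums 25141 to 27280 and 24650 to 29185). C1qa, C1qc and Cd14, among the 6, did not pass when any single library but DON 1 was left out, which gave 3 higher each time, and Lyz2 did not without any 1 control or DON 3 (limma adjusted p = 0.053 to 0.0787). In the same libraries 7 of 9 neutrophil markers fell (sums 10195 to 10548 and 2753 to 3203), with Ngp at -2.43 and S100a9 at -1.53. The other 2, Csf3r and Retnlg, had positive log2 changes and did not pass (0.19 and 0.31, limma adjusted p = 0.386 and 0.553). With 1 library left out, 5 to 7 neutrophil markers were called lower. All 13 B cell markers fell (median log2 -0.91; sums 72572 to 75946 and 49874 to 56453), with Ighm at -0.33 and Cd79a at -0.57. With any 1 control left out 6 B cell markers were called lower, and 9 without DON library 3. Of 10 tested dendritic cell markers, Siglech fell (log2 -3.50), and the highest were Bst2 (-0.16) and Ccr9 (-0.04); the sums were 8950 to 9418 and 8404 to 8653. The part of these cells in the levels of Ifng and its receptor was not tested.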

How the data were processed

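Per the file headers, the deposited signal is a normalized count; the values show that the authors used 1 divisor per library. The submitters' processing notes name HISAT2, StringTie, mm8 and mm10, with no role. Dividing by each library's smallest value above 0 left whole numbers (100% within 0.001), used as recovered counts; 1 unit need not be 1 read (854 to 903 genes held 4 units, 382 to 446 held 3). Positions are the files'; 49909 of 52550 genes had the same ones in GENCODE M21 (GRCm38).

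Main test: limma 3.58.1 in R 4.3.3 (two-sided, with a variance trend), run on log2(normalized count + 1), for 17185 genes with at least 10 in 3 of 6 libraries, Benjamini-Hochberg adjusted over all, threshold 0.05. This scale understates changes of low genes. Genes sharing a symbol were summed. All 7 members passed the minimum. The fit was tested on simulated counts, drawn as independent libraries with no GC trend. That test therefore does not cover the GC trend of DON libraries 2 and 3. edgeR 4.0.16 and DESeq2 1.42.0 on recovered counts were alternatives, with other pseudocounts, filters and scalings, a GC correction (loess, span 0.5), the replicate number as a block and omitted libraries. Exact permutation tests used scipy 1.17.1.

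Members and lists were chosen with earlier results of these data known. Named genes were all members and neighbours, the 3 smallest p in each pathway list, the 2 highest in each marker list and the 5 most like Ifng. Others that passed, or whose values were seen first, are named beside counts; some genes that the counts include are not reported here. Whether each library had its own mouse or culture is not in the labels, so p-values reflect only how these libraries vary, possibly for technical reasons. Intervals from 3 libraries a group are wide.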

Additional observations from a re-analysis of the deposited data

How the results depend on the processing

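Under 21 alternatives, Ifng stayed lower in DON and past the threshold in each (log2 -1.26 to -1.02, adjusted p up to 0.0331), and none of the other 6 genes passed in any; 1 member was called lower and 0 higher throughout. Without 1 library, Ifng ranged from -1.26 to -1.04. Signs of Tbx21, Eomes, Hlx and Ifngr1, none of which passed, turned in some alternatives. Depth limits Hlx most, at 132 recovered units in its lowest library.

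Counts over all genes were less steady than these. The 713 genes called lower became 1348 in DESeq2, 291 without the variance trend and 297 without DON libraries 2 and 3, and 193 to 2118 without 1 library, the highest without DON library 1. The 395 called higher became 790 in DESeq2, 596 after GC correction, 220 with no filter, 72 without the variance trend and 61 without DON libraries 2 and 3, and 65 to 1119 without 1 library. The fit without DON libraries 2 and 3 is among the alternatives. It holds 1 DON library and takes its spread from the controls alone. The cause was not tested. edgeR on recovered counts called 638 lower and 360 higher, and 740 and 401 with counts divided by 4, an alternative chosen after seeing the data. Same-numbered libraries did not deviate together (r = -0.0560, -0.0545 and -0.0520). The replicate block gave 240 lower and 48 higher, or 352 and 163 with GC correction, and Ifng an adjusted p of 0.0195. Relative to the CD3 and δ chain transcripts, without 1 library Ifng differed by -1.46 to -1.25, Tbx21 by -0.22 to -0.06 and Eomes by -0.42 to -0.11 on the log2 scale. Of 630 list counts under alternatives, 516 stayed within 1.5 times the main count. These include main counts of 0 that stayed at 0, so counts above 0 were less steady than that share. The count of factors acting with or on T-bet called lower stayed so in 5 of 21 alternatives.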
